A study of Rattus norvegicus with 8 samples.

Results

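The Hox genes and their TALE cofactors were examined in the lumbosacral spinal cord of rats under daily water avoidance (WA) stress and of their controls. Members were all probes, apart from control spots, whose gene name in the array files is a numbered gene of the HoxA, HoxB, HoxC or HoxD cluster or a numbered gene of the Meis or Pbx family. These were 39 probes of 34 genes, out of 26514 gene names on the array, identifiers of unnamed transcripts included. They comprised 27 Hox genes, 3 Meis genes and 4 Pbx genes. The arrays held RNA of the L6S1 segments of male rats 12 weeks old, of the Wistar strain by the study's methods, with 1 rat per array, 4 control rats and 4 stressed rats. Stressed rats spent 1 h a day on a platform surrounded by water for 10 days and were killed 24 h after the last session, and the labels name no other agent or allele in either group. The cord was flushed out of the column, stripped of meninges and cut by hand at L6S1, and the labels do not record where the cut fell in each rat.

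Hox genes encode homeodomain transcription factors that lie in 4 clusters, each ordered along the chromosome like the body regions its genes specify. Genes with low paralogue numbers are used from the hindbrain backwards, and those with the highest numbers only near the tail end. In the cord, paralogues 10 and 11 mark lumbar levels and instruct the motor neurons of the hind limb, and paralogues 12 and 13 belong to sacral and tail levels. Meis and Pbx proteins are homeodomain factors of the TALE class that bind DNA together with Hox proteins and sharpen their choice of sites. Much of this position code is kept in the adult cord.

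Gene names in the files are those of the array design. By transcript accession, 31 of the 39 probes matched a current RefSeq gene, and 2 of them had changed name. The probe the files call Hoxa10 belongs to Hoxa11, and the probe they call Hoxa9 belongs to Hoxa7, and both are given here under the current names. The other 8 probes, of Hoxa13, Hoxa5, Hoxb1, Hoxb6, Hoxc11, Hoxc6 and Meis2, kept the name in the files. Along each of the 4 clusters on the rn4 assembly, the order of the member probes followed their paralogue numbers. No exon or UTR annotation of rn4 was used here. Among the probes of the array, 0 of the 39 member probes shared an exact run of 20 bases with a probe of another gene name.

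The probes of several caudal genes lay in the homeobox itself, and 30 bases of 3 of them are shown because most of the observations below concern the caudal genes. Capitals mark the 9 bases that begin with the codon of the DNA-contacting asparagine of the recognition helix.
Hoxc11: aagtgaaaatttggtttcagAACAGAAGAa
Hoxc12: AACCGGAGAatgaaaaagaaaagacttctg
Hoxd13: cagAATCGAAGAgtgaaggacaagaaaatc
These stretches lie at chr7:141720005-141720034, chr7:141702097-141702126 and chr3:57285475-57285504 of rn4, all on the forward strand. Although the codons stand for the same residues in these related proteins, any 2 of these genes differed at 2 of the 9 bases.

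Signals are log2 values from which the 75th percentile of each array was subtracted, so that 0 is that percentile itself. A probe counted as detected in a rat if a share of 0.5 or more of its spots stood well above background by the scanner software. The 75th percentile of the raw signal lay between 1751 and 2335 on the 8 arrays, and between 23005 and 24066 of the 30367 probes were detected. A single slide held all arrays, stressed rats in its row 1 and controls in row 2, so that row and stress cannot be told apart. Control rat 2 stood apart from the other control rats. The signal of 5′ probes relative to 3′ probes of the same transcript, as a log2 value centred over the arrays, was 0.22 in control rat 2, between -0.30 and -0.18 in the other control rats and between 0.09 and 0.17 in the stressed rats. Of the genes that mark neurons, 11 of 11 were detected on all 8 arrays, as were 7 of 7 for astrocytes, 8 of 8 for oligodendrocytes and 5 of 5 for motor neurons. The forebrain genes Otx2, Emx2 and Six3 were detected on 0 of 8 arrays, although 6 of the 13 rostral homeobox genes with a probe were detected on all 8.

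Most member Hox genes were detected in the adult lumbosacral cord. Hoxa3 and Hoxa9 have probes under other names in the files. They are therefore not counted as members, and both were detected on all 8 arrays. Of the 27 member Hox genes, 20 were detected on all 8 arrays, 3 on some arrays and 4 on none. All 8 members with paralogue numbers 5 to 8 and both with number 9 were detected on all 8 arrays. So were all 3 members with numbers 10 and 11 (Hoxd10, Hoxa11 and Hoxc11). Detection was less complete at both ends of the numbering. Of the 8 genes numbered 1 to 4, 5 were detected on all arrays, 1 on some arrays and Hoxb1 and Hoxb3 on none. Of the 6 genes numbered 12 and 13, Hoxd12 and Hoxc13 were detected on all arrays, Hoxa13 on 7, Hoxc12 on 5 and Hoxb13 and Hoxd13 on none. By cluster, 5 of 7 HoxA genes, 5 of 8 HoxB genes, 5 of 6 HoxC genes and 5 of 6 HoxD genes were detected on all arrays. A gene that was not detected was not well above background at its probe, and signals of different probes do not give relative levels of genes. A gene with more than 1 probe was counted at the probe detected most often. For Hoxc5 the other probe was detected on 0 arrays. All 3 Meis genes and all 4 Pbx genes were detected on all 8 arrays. Per rat, between 27 and 30 of the 34 genes were detected, with the lowest number in stressed rat 3.

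**Figure D1:**
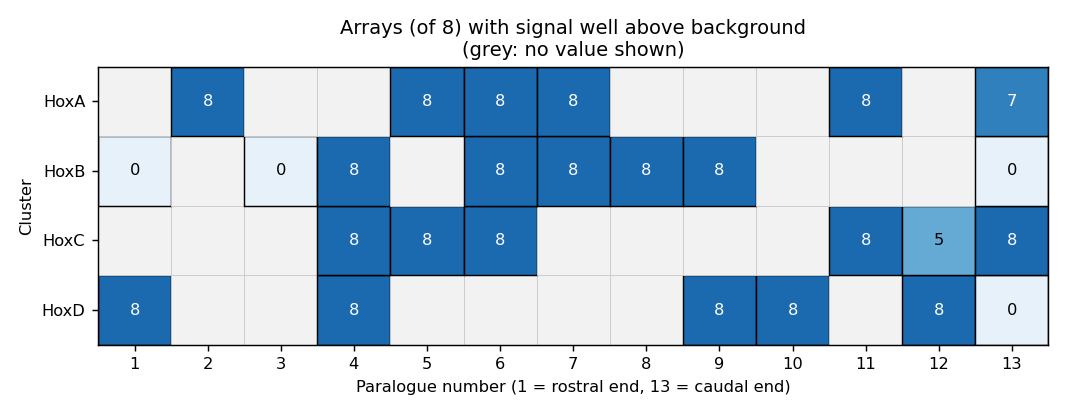
Number of the 8 arrays on which each of 26 member Hox genes was well above background, at its most often detected probe, by cluster (rows) and current paralogue number (columns). The block from number 5 to number 11 reads 8 throughout, and the values below 8 lie at the 2 ends, at numbers 1 and 3 and at numbers 12 and 13.

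At the probe that stands for each gene, member genes numbered 1 to 9 lay near the control mean in stressed rats 2 and 3. Several of those numbered 10 to 13 were low in stressed rat 3, and some also in stressed rat 2. This pattern was chosen for description after the values were seen. In bulk tissue, fewer cells of a type and less RNA per cell cannot be told apart. For the 16 tested member genes numbered 1 to 9, stressed rat 3 lay between 0.47 below and 0.63 above the control mean, in log2 units. Stressed rat 2 lay between 0.39 below and 0.38 above it. These are values at the probe with the highest mean of each gene. A second, dimmer probe of Hoxc6 lay 0.85 above the control mean in stressed rat 2 and 1.15 above it in stressed rat 3. Control rats themselves differed at some genes, with an SD of up to 0.80 for numbers 1 to 9 and up to 0.63 for numbers 10 to 13. For the 7 tested genes numbered 10 to 13, stressed rat 3 ranged from -4.71 to 0.51 relative to the control mean, and it was the lowest of the 8 rats for 4 of them.

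Hoxc11, which acts with its paralogues in lumbosacral patterning, had signals of -0.55, -0.36, -0.39 and -0.23 in control rats 1 to 4 (SD 0.13) and of 0.00, -2.59, -5.09 and 0.03 in stressed rats 1 to 4 (SD 2.45). Stressed rat 3 lay 26.2-fold and stressed rat 2 4.60-fold below the control mean, whereas stressed rats 1 and 4 lay above all control rats. Hoxa11, which patterns the lumbosacral axis and the middle limb segment, had signals of 0.36, 0.33, 0.30 and 0.28 in control rats 1 to 4 (SD 0.04) and of 0.52, -0.33, -3.46 and 0.44 in stressed rats 1 to 4 (SD 1.88). Stressed rat 3 lay 13.7-fold and stressed rat 2 1.56-fold below the control mean, and stressed rats 1 and 4 were again above every control rat. The probe of Hoxa11 lies at chr4:80542437-80542496 and that of Hoxc11 at chr7:141719975-141720034, on different chromosomes, and both stayed well above background in all rats.

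Hoxd10, which is needed for lumbar motor neuron identity, showed the same order in a weaker form at chr3:57309214-57309273. Its signals were 2.27, 1.53, 2.16 and 2.07 in control rats 1 to 4 and 1.81, 1.43, 0.44 and 1.94 in stressed rats 1 to 4. Stressed rat 3 lay 2.96-fold below the control mean and stressed rat 2 just below the lowest control rat, while stressed rats 1 and 4 lay within the control range. Hoxc12, a sacral and tail gene, had signals of -7.51, -6.04, -7.04 and -6.60 in control rats and of -6.52, -9.06, -8.97 and -6.15 in stressed rats, each in the order 1 to 4. It was well above background in 3 control rats and in stressed rats 1 and 4, but not in control rat 1 or in stressed rats 2 and 3, so that their values are only upper bounds.

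The other caudal genes varied. Hoxa13, a gene of the terminal body end, was lowest in stressed rat 3 by a smaller margin. It had signals of -6.71, -5.86, -5.98 and -6.18 in control rats and of -6.91, -6.58, -7.50 and -6.26 in stressed rats, and in stressed rat 3 it was not well above background, so that this value is only an upper bound. Hoxc13, at the caudal end of the same cluster as Hoxc11 and Hoxc12, lay within the control range in all 4 stressed rats, from -6.57 to -6.37 against -6.81 to -5.82. Hoxd12 was higher in stressed rat 3 than in any other rat, as described below.

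**Figure D2:**
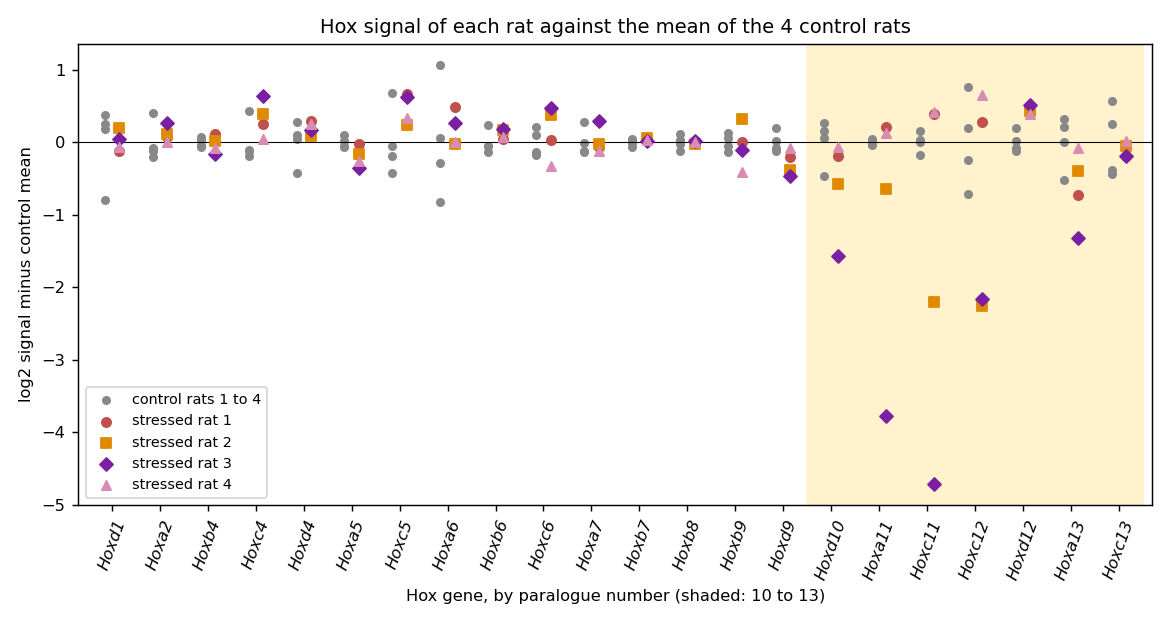
Log2 signal of each rat minus the mean of the 4 control rats, for 22 tested Hox genes in order of paralogue number, with grey points for control rats, coloured symbols for stressed rats and shading for numbers 10 to 13. The purple diamonds of stressed rat 3 fall to -4.71 at Hoxc11 and -3.78 at Hoxa11, the orange squares of stressed rat 2 reach -2.20 at Hoxc11, and left of the shading all stressed rats stay within about 1 log2 unit of the control mean.

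The size of these drops was compared with that of all other probes, as a description. Among the 23678 tested probes, Hoxa11 and Hoxc11 ranked 1 and 3 by how far stressed rat 3 lay below the lowest of the other 7 rats, at 3.14 and 2.51 log2 units. Rank 2 was an unnamed probe inside the HoxD cluster, A_64_P163281, at chr3:57299192-57299251 between the probes of Hoxd12 and Hoxd10. Hoxd10 ranked 26 and Hoxa13 ranked 82. In stressed rat 3, 5 probes lay more than 2 log2 units below all other rats and 3 of them were inside Hox clusters, whereas in each of the other 7 rats between 0 and 5 probes did so and 0 were inside Hox clusters.

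Among the probes between the members, some were low in stressed rats 2 and 3 and others were high. The spans between the outermost member probes hold 21 further probes, 19 of which were tested, and 0 of these 19 passed the comparison of stressed and control rats. A_64_P163281 had signals of -4.28, -4.78, -4.27 and -4.14 in control rats 1 to 4 and of -4.004, -5.99, -9.09 and -4.14 in stressed rats 1 to 4, and it was not well above background in stressed rat 3, where the value is an upper bound. A_64_P091817 lies beside the Hoxc11 probe, at chr7:141721002-141721061, and had signals of 0.31, 0.46, 0.48 and 0.56 in control rats and of 0.48, -1.68, -3.24 and 0.60 in stressed rats. At both probes, as at Hoxc11, stressed rats 2 and 3 were the lowest and stressed rats 1 and 4 lay within or above the control range. Further from Hoxc11 in the interval up to Hoxc6 the order was the opposite. TC597776 at chr7:141757154-141757213 had 0.41 in stressed rat 2 and 0.63 in stressed rat 3, and all other rats lay at or below -0.01. A_64_P153556 at chr7:141757674-141757733 had 1.22 and 1.33 in stressed rats 2 and 3, against 0.61 to 0.95 in control rats and 0.54 and 0.55 in stressed rats 1 and 4.

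Hoxa11-as, the antisense RNA of Hoxa11, has a probe on the opposite strand at chr4:80550018-80550077, under an older name in the files that is a synonym of this RefSeq gene. In RefSeq (GRCr8) the 300-base windows around the starts of Hoxa11 and Hoxa11-as share 274 bases on opposite strands. Its signals were 0.47, 1.004, 0.41 and 0.41 in control rats 1 to 4 and 0.65, 0.51, -0.21 and 0.50 in stressed rats 1 to 4. Stressed rat 3 was the lowest for the antisense RNA as well, but lay 0.79 log2 units below the control mean, against 3.78 for Hoxa11. Further towards Hoxa7, the transcript probe TC590636 at chr4:80531924-80531983 had 0.11 in stressed rat 3, against 0.12 to 0.43 in control rats. The probe of Hoxa9, listed as Hoxa9l in the files, was higher in stressed rat 3 than in the control rats, at -2.85 against -4.42 to -3.10. Stressed rats 1, 2 and 4 had -3.35, -3.26 and -3.37, above all control rats but control rat 2.

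**Figure D3:**
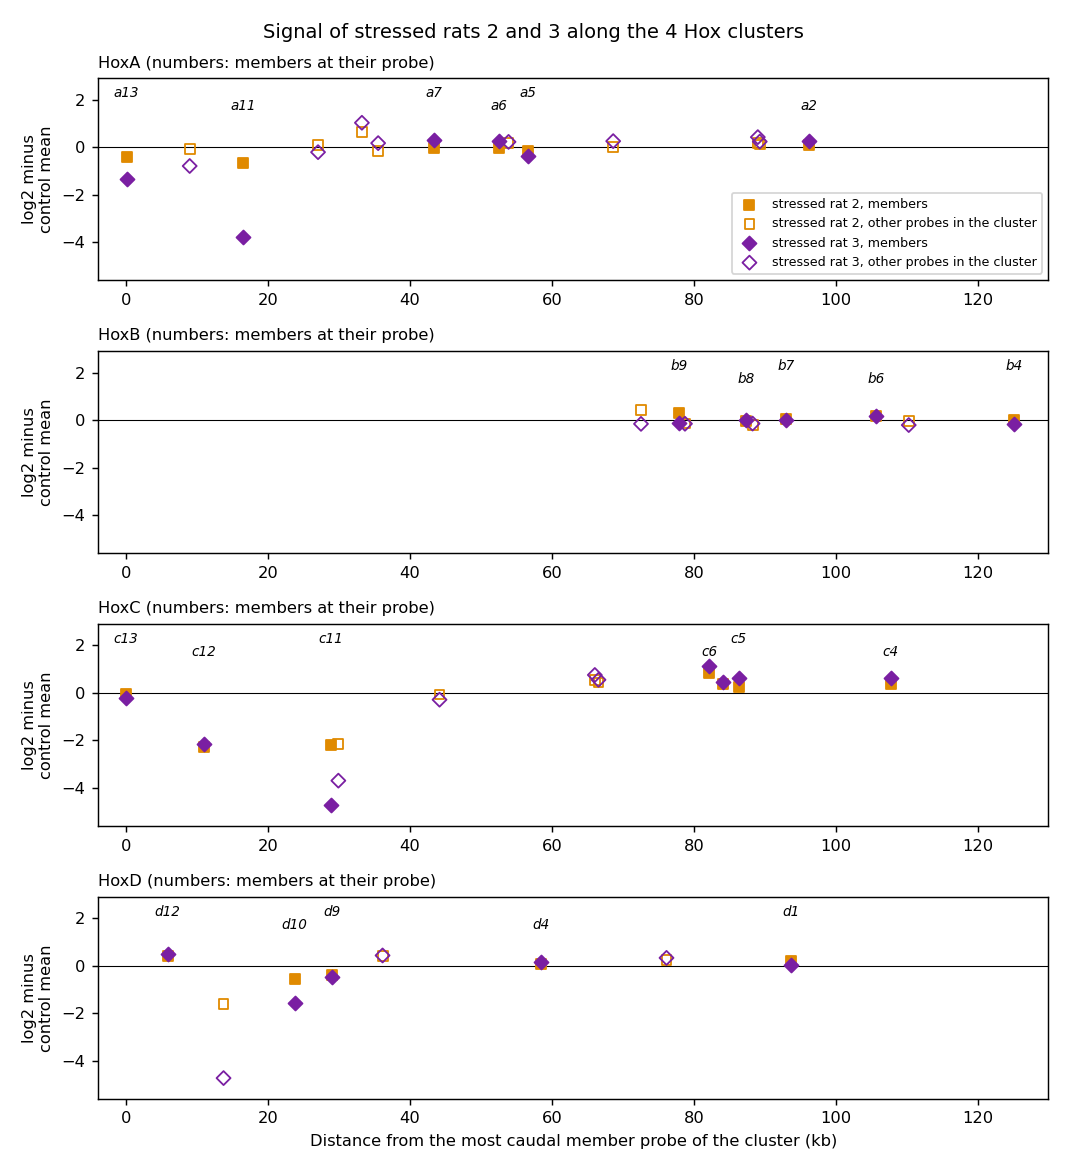
Log2 signal of stressed rat 2 (orange squares) and stressed rat 3 (purple diamonds) minus the control mean, against the distance in kb of each tested probe from the most caudal member probe of its cluster, with filled symbols for members and open symbols for other probes of the cluster. In HoxA, HoxC and HoxD the lowest values, down to -4.73 at a HoxD probe not well above background in stressed rat 3, lie toward the caudal end, together with caudal genes near 0 such as Hoxc13 and Hoxd12, no member further along falls below -0.47, and HoxB has no tested probe near its caudal end.

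Markers of other tissue moved between rats too, and their part in the pattern of the caudal Hox genes was not tested. The summed signal of the 6 tested Schwann cell genes, in units of the 75th percentile, ranged from 5.17 to 57.5 in control rats and from 5.14 to 19.5 in stressed rats, and stressed rat 3 had the highest value among stressed rats while control rat 1 had the highest of all. Signal of the 7 meningeal and fibroblast genes ranged from 2.99 to 9.23 in control rats and from 3.00 to 7.02 in stressed rats, again with the highest stressed value in stressed rat 3. The 5 motor neuron genes summed to 9.20 to 11.7 in control rats and to 7.10 to 10.3 in stressed rats, with the lowest value in stressed rat 3. The 11 neuron genes summed to 192 to 209 in control rats and to 189 to 224 in stressed rats, also lowest in stressed rat 3. The 7 astrocyte genes summed to 94.9 to 110 in control rats and to 101 to 131 in stressed rats, and the 4 red blood cell genes to 58.3 to 88.2 and to 49.0 to 106.9, and in both the highest of all values was that of stressed rat 3. The 7 tested dorsal root ganglion genes summed to 0.47 to 0.77 in control rats and 0.55 to 0.68 in stressed rats. Of the marker lists, none had all of its genes undetected, and Mrgprd of the ganglion list and Myh4 of the muscle list were detected on 1 and 0 arrays. Where in L6S1 each rat's tissue was cut is not in the labels, and its part in the result was not tested.

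Between stressed and control rats, 1 of the 33 tested member probes passed at FDR below 0.1. This was Hoxd12, against a background of 3.74% of all 23678 tested probes (885 probes), and it is 3.03% of the member probes. At FDR below 0.05, 0 of 33 passed, against 0.477% of all probes, and 5 of 33 (15.2%) had an unadjusted p below 0.05 in limma, against 20.3% of all probes. Stressed and control signals were fully apart for 2 of the 33 probes (6.06%), those of Hoxd12 and Pbx2, against 12.1% of all probes. By each of these measures the members were called no more often than the array as a whole. Without control rat 2, 11 of the member probes passed at FDR below 0.1, beside 10014 of all probes. With any other rat left out 0 members passed, beside 0 to 76 of all probes. Of the 33 probes, 21 (63.6%) were higher and 12 lower in stressed rats, beside 59.6% higher among all tested probes. Their median log2 difference was 0.10, beside 0.06 over all tested probes.

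Hoxd12, a 5′ HoxD gene of digits and tail, had signals of -5.39, -5.11, -5.29 and -5.42 in control rats 1 to 4 and of -4.89, -4.88, -4.79 and -4.92 in stressed rats 1 to 4. The lowest of the 4 stressed rats exceeded the highest control rat. The log2 difference was 0.43 (95% confidence interval 0.23 to 0.63), with an adjusted p of 0.0709 in limma and p = 0.0286 in the exact permutation test, the smallest that 4 against 4 rats allow. Leaving out any rat other than control rat 2 took the adjusted p to between 0.134 and 0.217, and without control rat 2 it was 0.00179. The difference was 0.23 after normexp background correction (adjusted p = 0.712 in limma) and 0.24 after quantile normalization (adjusted p = 0.171). When the fit included each array's 5′ minus 3′ value, it was 0.30 (adjusted p = 0.0924).

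The paralogues 10 and 11, although low in stressed rat 3, did not differ between the groups beyond the spread of the stressed rats. The log2 difference of Hoxc11 was -1.53 (95% confidence interval -4.01 to 0.95, adjusted p = 0.436 in limma), that of Hoxa11 was -1.02 (-2.92 to 0.87, adjusted p = 0.492) and that of Hoxd10 was -0.60 (-1.37 to 0.17, adjusted p = 0.336). The difference of Hoxc12 (-0.88, adjusted p = 0.511 in limma) cannot be read as a size, since 3 of its 8 values are upper bounds. With the 5′ minus 3′ value of each array in the fit, the difference of Hoxd10 was -0.18 (adjusted p = 0.835). Without stressed rats 2 and 3, in a comparison added after the data were seen, the difference was 0.40 for Hoxc11, 0.16 for Hoxa11 and -0.13 for Hoxd10, with adjusted p between 0.484 and 0.843 in limma. Without stressed rat 3 alone it was -0.47, -0.10 and -0.28 in the same order.

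Of the member Hox genes numbered 1 to 9, 11 of the 16 tested were higher and 5 lower in stressed rats, beside 59.6% higher among all probes. None of them passed, with adjusted p between 0.224 and 0.996 in limma. At the probe that stands for each gene, the largest rises were those of Hoxc5 and Hoxc4, genes of cervical and upper thoracic levels. The 2 probes of Hoxc6 differed, with a rise of 0.14 at the one that stands for it (adjusted p = 0.689 in limma). At its second, dimmer probe the rise was 0.64 (adjusted p = 0.298). Hoxc5 had signals of -6.09, -5.36, -6.46 and -6.22 in control rats 1 to 4 and of -5.37, -5.80, -5.41 and -5.70 in stressed rats 1 to 4, a difference of 0.46 (-0.08 to 1.01, adjusted p = 0.301). These are values of a dim probe, and the other probe of Hoxc5 was detected on 0 arrays and was not tested. Hoxc4 had -4.15, -3.53, -4.06 and -4.08 in control rats and -3.70, -3.58, -3.33 and -3.91 in stressed rats, a difference of 0.33 (-0.07 to 0.73, adjusted p = 0.314). Control rat 2 was the highest control rat for both, among the stressed rats for Hoxc4 and at their upper edge for Hoxc5. When the fit included the 5′ minus 3′ value of each array, the differences were -0.06 for Hoxc5 and -0.01 for Hoxc4. Without control rat 2 both passed at FDR below 0.1 (adjusted p = 0.0107 and 0.0334 in limma). Hoxd9, of thoracic and lumbar cord, had the largest fall in this range, at -0.28 (-0.54 to -0.02, adjusted p = 0.224), with control values of 2.49 to 2.81 and stressed values of 2.15 to 2.54. The smallest spread was seen in HoxB. Hoxb7, active from the thorax backwards, was 1.76 to 1.87 in control rats and 1.84 to 1.88 in stressed rats, and its neighbour Hoxb8 was -1.81 to -1.58 and -1.72 to -1.68, with stressed minus control differences of at most 0.04 in size.

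**Figure D4:**
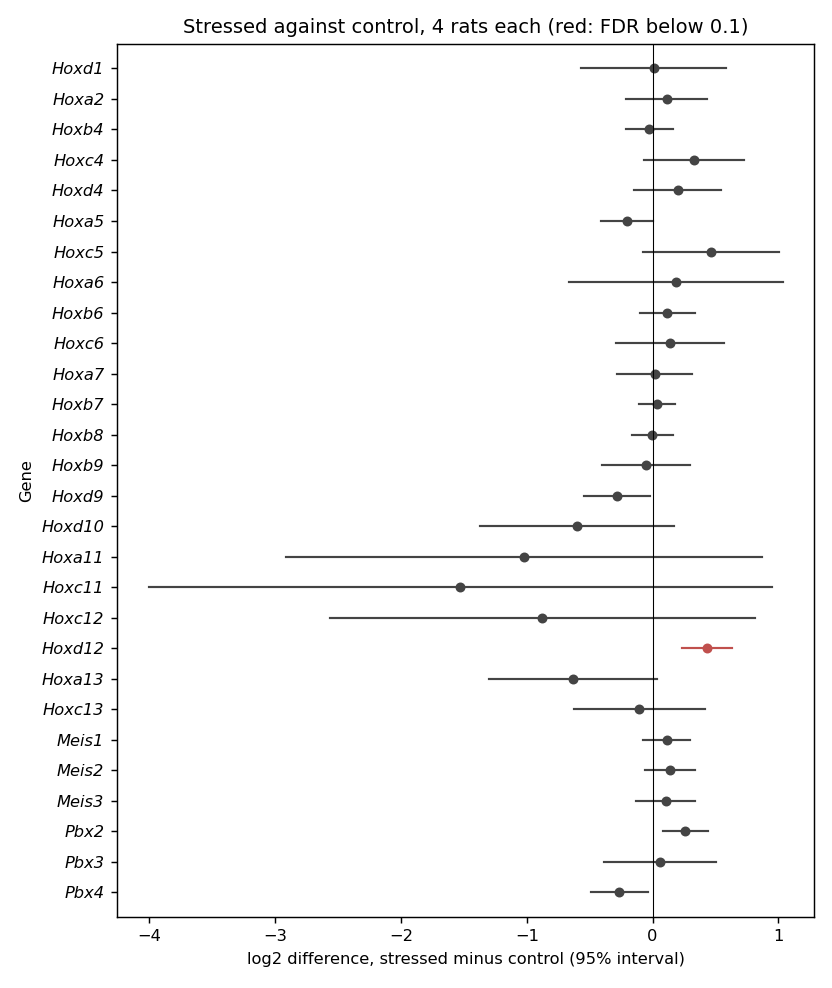
Stressed minus control log2 difference with its 95% confidence interval for 28 tested genes at the probe that stands for each, with 4 rats in each group, Hox genes in order of paralogue number and red for FDR below 0.1. Hoxd12 at 0.43 is the only red gene, and the widest intervals are those of Hoxc11 (-4.01 to 0.95) and Hoxa11 (-2.92 to 0.87), while the point of Hoxc12 rests in part on upper bounds.

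The Meis and Pbx cofactors were detected in every rat. All 4 Meis probes and those of Pbx2 and Pbx3 had a higher mean in stressed rats, as did 59.6% of all tested probes. The sign turned with median scaling for Meis3 and Pbx3 and with the 5′ minus 3′ value in the fit for Meis3. No cofactor passed at FDR below 0.1. Meis1 had signals of 0.55, 0.61, 0.46 and 0.44 in control rats 1 to 4 and of 0.63, 0.60, 0.76 and 0.51 in stressed rats 1 to 4, a difference of 0.11 (adjusted p = 0.444 in limma). Meis2 had -2.10, -1.89, -1.94 and -2.04 against -1.76, -1.94, -1.75 and -1.95, a difference of 0.14 (adjusted p = 0.379). Meis3 had -2.02, -1.66, -1.84 and -1.77 against -1.73, -1.72, -1.87 and -1.55, a difference of 0.10 (adjusted p = 0.573). The groups overlapped for all 3 Meis genes, and the second probe of Meis1 was also higher by 0.21 in stressed rats.

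Pbx2, a widely expressed Pbx gene that lies in the major histocompatibility region, had signals of -2.17, -1.93, -2.02 and -1.92 in control rats 1 to 4 and of -1.79, -1.72, -1.76 and -1.73 in stressed rats 1 to 4. Its groups did not overlap, with a difference of 0.26 (0.08 to 0.44, adjusted p = 0.143 in limma) and p = 0.0286 in the exact permutation test. Without control rat 2 the adjusted p was 0.0229. Pbx4, the only cofactor with a lower mean in stressed rats, had -4.43, -4.18, -4.19 and -4.16 against -4.65, -4.53, -4.52 and -4.32, a difference of -0.27 (-0.49 to -0.04, adjusted p = 0.200). Control rat 1 lay within the stressed range and the other control rats above it.

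Pbx3, which is known from dorsal horn neurons, had 2.13, 1.65, 1.66 and 2.18 against 1.99, 1.66, 2.37 and 1.83, a difference of 0.06 (adjusted p = 0.875) with overlapping groups.

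**Figure D5:**
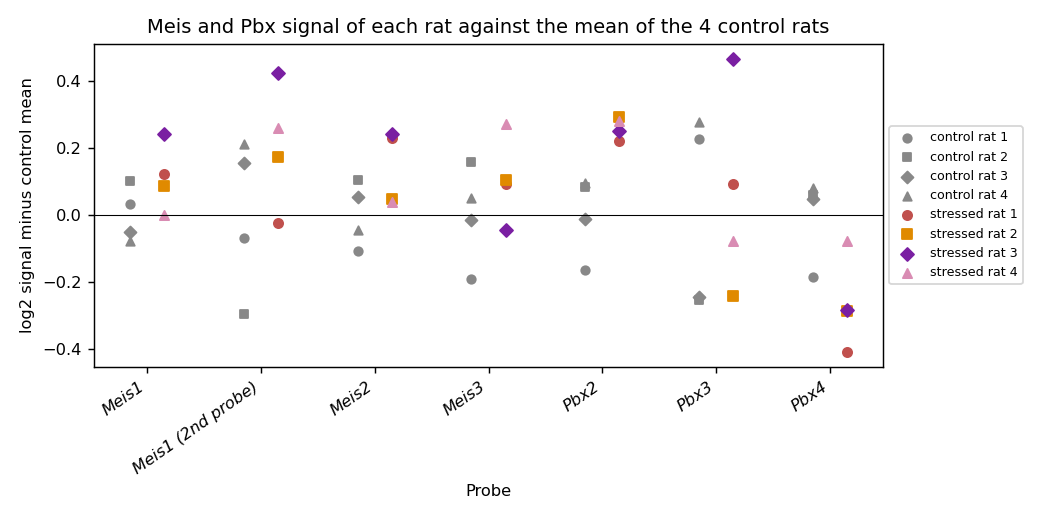
Log2 signal of each rat minus the mean of the 4 control rats at 7 Meis and Pbx probes, with grey symbols for control rats and coloured symbols for stressed rats. At Pbx2 the stressed rats lie above all control rats, and at Pbx4 3 of them lie below all control rats.

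Genes that act with or upstream of the Hox genes were taken from 4 lists of 74 genes, 60 of which were tested. Of these, 2 rose at FDR below 0.1, which is 3.33% beside 3.74% of all probes, and none fell. The median log2 difference over the 60 genes was -0.02. Both risers were among the 26 tested Polycomb genes, whose products keep silent Hox genes repressed. Rbbp4, a histone chaperone of Polycomb repressive complex 2 and of other complexes, had signals of 1.35, 1.85, 1.35 and 1.39 in control rats 1 to 4 and of 2.02, 2.13, 2.09 and 1.95 in stressed rats 1 to 4, a difference of 0.56 (adjusted p = 0.0853 in limma). Bmi1, a core subunit of Polycomb repressive complex 1, had -3.70, -3.50, -3.59 and -3.40 against -3.07, -3.19, -2.98 and -3.27, a difference of 0.42 (adjusted p = 0.0908). At both genes the lowest stressed rat exceeded the highest control rat. The largest fall in the list was -0.31 for Phf1, a Polycomb-like subunit (adjusted p = 0.110). With any rat other than control rat 2 left out, 0 genes of the 4 lists passed, beside 0 to 76 of all probes. Without control rat 2, 35 did, beside 10014 of all probes.

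In the Trithorax and H3K27 demethylase list, which holds genes that keep Hox genes active, 0 of 10 tested genes passed. Mll1, the methyltransferase that maintains Hox expression, had the largest rise, with -3.94, -1.52, -3.47 and -3.42 in control rats 1 to 4 and -1.42, -1.44, -1.39 and -1.59 in stressed rats 1 to 4 (difference 1.62, adjusted p = 0.137 in limma). Control rat 2 lay among the stressed rats and the other control rats far below. The largest fall was -0.31 for the demethylase Kdm6b (adjusted p = 0.109). In the list of other TALE genes 0 of 8 passed, with the largest rise at Irx3 (0.83, adjusted p = 0.214) and the largest fall at Irx2 (-0.19, adjusted p = 0.364).

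Among upstream regulators, which are Cdx factors, Gdf11 and the retinoic acid pathway, 0 of 16 tested genes passed. Cyp26a1, which degrades retinoic acid, had the largest rise, with -5.03, -5.21, -4.95 and -5.01 in control rats 1 to 4 and -4.78, -4.66, -4.13 and -4.48 in stressed rats 1 to 4 (difference 0.54, adjusted p = 0.121 in limma). Its groups did not overlap. Crabp1, a retinoic acid binding protein, had the largest fall, with -0.92, -1.27, -0.67 and -0.53 against -1.18, -1.80, -2.36 and -0.77 (difference -0.68, adjusted p = 0.296). As at Hoxc11, Hoxa11 and Hoxd10, stressed rats 3 and 2 were the lowest for Crabp1. This order did not hold at Hoxa13, Hoxc13 or Hoxd12. Cdx1 was detected on all 8 arrays (difference 0.40, adjusted p = 0.215 in limma), Cdx2 on 0 arrays and Cdx4 on 2 arrays. The 2 Evx genes, which flank the HoxA and HoxD clusters, were detected on all 8 arrays, and the differences were 0.45 for Evx1 (adjusted p = 0.375) and 0.13 for Evx2 (adjusted p = 0.573). Of the 23 tested transcription factors of spinal neurons, 0 passed, with a median log2 difference of -0.03.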

How the data were processed

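RNA of L6S1 spinal cord from 8 rats was hybridized by the authors to 1-colour Agilent rat arrays, 1 rat per array. The deposited intensity values of each spot are the processed signal of Agilent Feature Extraction 10.7.3.1, which per the file headers is background-subtracted and detrended. A deposited value table holds the same intensity, within 0.05, without normalization between arrays. The analysis software of the study was dChip, and its normalization and test are not given in the sources used here.

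Control spots (4259) were left out, and 58717 spots remained. Spots with outlier marks were removed, log2 signals were scaled by the 75th percentile of each array, and spots of a probe were averaged. Of 30367 probes, 23678 stood well above background in 4 or more rats and were tested with limma 3.58.1 (R 4.3.3), stressed minus control, with no covariate and Benjamini-Hochberg adjustment over all of them (FDR). The fit was tested on simulated data. Exact permutation tests were two-sided. Symbols were updated through RefSeq transcript accessions (18376 probes matched) or, for probes between members, unique synonyms. Homeobox stretches were read from the probe sequences of the files with Biostrings 2.70.1, and their positions follow from the probe positions on rn4. For the 5′ minus 3′ difference, the median was taken of 1885 transcripts that have probes separated by 300 bases or more. No counts exist, so the number of arrays limits the precision. The labels give only a replicate number, and p-values measure the spread between these rats.

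The probe with the highest mean among tested probes stood for a gene. Values per rat were given for members called at FDR below 0.1, for paralogues 10 and 11, for Meis and Pbx genes and for the 3 largest rises and falls among Hox genes. Of related lists, called genes and the largest rise and fall were named. Hoxa13, Hoxc13, Hoxd9, Hoxb7, Hoxb8, the second Hoxc6 probe, the probes between members, Cdx1 and the Evx genes were chosen once their values were seen. Results of 2 members and 1 sequence are not reported here. The members, lists and tests were chosen with earlier results of these data known. Alternatives were normexp with an offset of 50, quantile normalization, median scaling, the value table, 2 other filters, a variance trend with robust estimation, array weights, a replicate block, the 5′ minus 3′ covariate, a single probe for each symbol, and each array left out in turn. Leaving out stressed rats 2 and 3 together was added after the data were seen.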

Additional observations from a re-analysis of the deposited data

Results flagged for a closer look

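Among the 13 genes named by rule, each group of 4 rats was searched for a rat whose gap to the nearest other rat, divided by the range of the group, exceeded Dixon's 95% critical value for 4 samples. This was so in 2 of 26 groups, where chance gives about 1 in 20. Pbx4 was -4.43 in control rat 1, apart from the other control rats (ratio 0.876). Hoxc4 was -3.53 in control rat 2, apart from the other control rats (ratio 0.858). The low values of Hoxa11 and Hoxc11 in stressed rat 3 did not reach the critical value, since stressed rat 2 lay between stressed rat 3 and the others.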

How the results depend on the processing

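For the 13 named genes under all alternative settings, 226 values kept their direction and their side of the FDR threshold of 0.1, 9 newly passed, 12 (all of Hoxd12) no longer passed and 12 changed sign. Members passing at FDR below 0.1 numbered 0 with normexp, quantile normalization, the variance trend or without stressed rats 2 and 3, 2 with the 5′ minus 3′ covariate (Hoxd12 and Hoxd1) and 15 with array weights, beside 885 of all 23678 probes in the reported setting, 2390 with the covariate and 11983 with weights. With weights 11 members passed at 0.05, and control rat 2 had a weight of 0.107. Genes of the 4 related lists passing numbered 0 with normexp and without stressed rats 2 and 3, 4 with quantile normalization, the filter on all 8 arrays and the variance trend, 6 with median scaling, 7 with no filter, 9 with the covariate and 42 with weights. Of all probes, 215 passed with normexp, 1166 with quantile normalization, 1118 with median scaling and 3010 with no filter. With the filter on all 8 arrays 1079 passed, with the variance trend 1295 and without stressed rats 2 and 3, 0. With each array left out in turn, the counts ran from 0 to 11 and, at 0.05, from 0 to 7 for members and from 0 to 35 for the lists. In each case the highest was without control rat 2 and all others were 0. Over all probes, 10014 passed at 0.1 without control rat 2 and 0 to 76 with any other array left out. With the replicate block, 0 of all probes passed, members and list genes included (Hoxd12 adjusted p = 0.211 in limma). Same-numbered rats share only a number: their deviations correlated at 0.10, 0.12, -0.09 and 0.31, and 1 of 8 rats correlated best with its own number. Signs changed with median scaling for Meis3 (-0.0004) and Pbx3 (-0.0461), with weights for Pbx3 (-0.0165), with the covariate for Meis3 (-0.0118), Hoxc4 (-0.0139) and Hoxc5 (-0.0588), without stressed rats 2 and 3 for Hoxa11 (0.16), Hoxc11 (0.40) and Hoxc12 (0.46, from -0.88, with values at background), and with single arrays left out for Pbx3 (control rats 2 and 3 and stressed rat 3, range -0.0766 to 0.16). The difference of Hoxc12 was -0.0385 with normexp. The median difference of all probes was 0.06, and -0.04 with median scaling or the covariate, and the share of called probes that were higher was 74.0%, but 88.4% with normexp, 85.2% with no filter, 61.3% with quantile normalization, 52.3% with median scaling and 48.2% with the covariate. The cause was not tested. The number of member Hox genes detected on all arrays ran from 19 to 23. With 4 arrays a group and dim probes such as Hoxc12 and Hoxa13, small changes would not be detected.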
